A study of Mus musculus with 12 samples.

Results

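The mitochondrial ribosomal proteins described here are the 78 genes, of 24982 gene symbols counted, whose symbol is Mrpl or Mrps followed by a number and at most 1 letter. All 78 had at least 10 counts in 3 or more libraries, and their counts ran from 170 to 5971 in a single library. By the structures of the mammalian mitoribosome, 51 belong to the large subunit and 26 to the small subunit. The remaining gene, Mrps36, carries a mitoribosomal name but encodes a subunit of the 2-oxoglutarate dehydrogenase complex. The 12 RNA-seq libraries, 3 in each of 4 groups, came from B-ALL lines, mouse leukaemia cells of the B lymphoid lineage. DKO cells (Bax-/-, Bak-/-) and TKO cells (Bax-/-, Bak-/-, Mcl-1-/-) were each kept for 24 h in regular medium or in low-glucose medium. Every group therefore lacked Bax and Bak, the effectors of mitochondrial apoptosis, and no group was intact for them. Each genotype is represented by a single line in the labels, so loss of Mcl-1 and other differences between the lines cannot be told apart. Nothing in the labels shows that a group's 3 libraries are separate cultures, so p-values cover only the spread between libraries, which may be technical.

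Mitochondria keep their own ribosome, which translates the few messenger RNAs of the mitochondrial genome, all of them for membrane subunits of the respiratory chain and the ATP synthase. Its RNA comes from mitochondrial DNA, but all its proteins are encoded in the nucleus, made in the cytosol and imported. Some have bacterial counterparts, here called bacterial-type, and others are found only in mitochondrial ribosomes. Supply of these proteins is part of the capacity of a cell to build the respiratory chain.

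Total counts ran from 22190736 to 56260867 per library, and the 78 genes together took 0.275% to 0.347% of them. Mcl1 stood at 237 to 273 CPM (counts scaled to a common library size with TMM factors) in the 6 DKO libraries and at 0.170 to 0.475 CPM in the 6 TKO libraries. Bax and Bak1 kept reads in all libraries, and more in DKO. Bax stood at 16.9 to 23.01 CPM in DKO and 5.62 to 7.92 CPM in TKO. Bak1 stood at 15.9 to 20.2 CPM in DKO and 4.07 to 5.73 CPM in TKO. Summed markers of the B lineage stood at 5342 to 6228 CPM, but single markers differed between the lines. Of the 12 markers 6 were higher and 4 lower in TKO in regular medium (log2 -0.82 to 3.46). In low glucose 5 were higher and 3 lower (log2 -0.78 to 2.72). Over all genes tested 28.3% were higher and 33.4% lower in regular medium, and 37.2% and 37.4% in low glucose. Summed T-cell markers stood at 89.5 to 100.4 CPM in DKO and 9.08 to 12.97 CPM in TKO, nearly all of it Lck. The stromal list stood at 56.7 to 168.1 CPM, nearly all of it the endothelial gene Pecam1. Cd4, Elane, Col3a1, Pdgfra, Pf4 and the globin genes had no count in any library. The myeloid list reached at most 4.56 CPM and the erythroid and megakaryocyte list at most 0.794 CPM. The part of these differences in the results below was not tested. The median absolute log2 deviation from the group mean, leaving out genes that averaged under 5 CPM, was 0.0386 to 0.0809 in TKO libraries and 0.0188 to 0.0277 in DKO libraries. Library 2 of each TKO group and library 3 of TKO in low glucose stood furthest out.

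Transcript levels differed widely among proteins that are built into 1 particle. Per transcript length, in the deposited TPM values, which divide by transcript length and library total, the mean over all libraries had a median of 68.4 among the 78 genes, and 61 of them lay between 10 and 100 TPM. The highest were Mrps21, a bacterial-type protein of the small subunit, at 480 TPM, Mrpl42, a mitochondria-specific protein of the large subunit, at 356 TPM, and Mrps18c, a bacterial-type protein of the small subunit, at 332 TPM. The lowest were Mrpl17, a bacterial-type protein at the exit tunnel, at 8.29 TPM, the mitochondria-specific Mrps25 of the small subunit at 10.4 TPM, and Mrpl48, a mitochondria-specific protein of the central protuberance, at 12.7 TPM. Highest and lowest thus differed 57.8-fold on the TPM scale. TPM depends on the transcript length that was assigned to each gene, and the lengths used are not given in the sources used here. In DKO, Mrps21 stood at 484 ± 4.92 TPM in regular medium and 417 ± 7.30 TPM in low glucose (SD, n = 3). In TKO it stood at 536 ± 15.2 and 482 ± 55.9 TPM. Summed over the 78 genes, the level was 7726 ± 24.2 TPM in DKO in regular medium and 6314 ± 24.0 TPM in DKO in low glucose (SD, n = 3). It was 8147 ± 59.4 TPM in TKO in regular medium and 7218 ± 248 TPM in TKO in low glucose. The 3 libraries of TKO in low glucose gave 7073, 7504 and 7075 TPM, so library 2 lay above the others, and no library of low glucose reached the lowest library of regular medium of its line (7699 TPM in DKO, 8085 TPM in TKO).

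**Figure D1:**
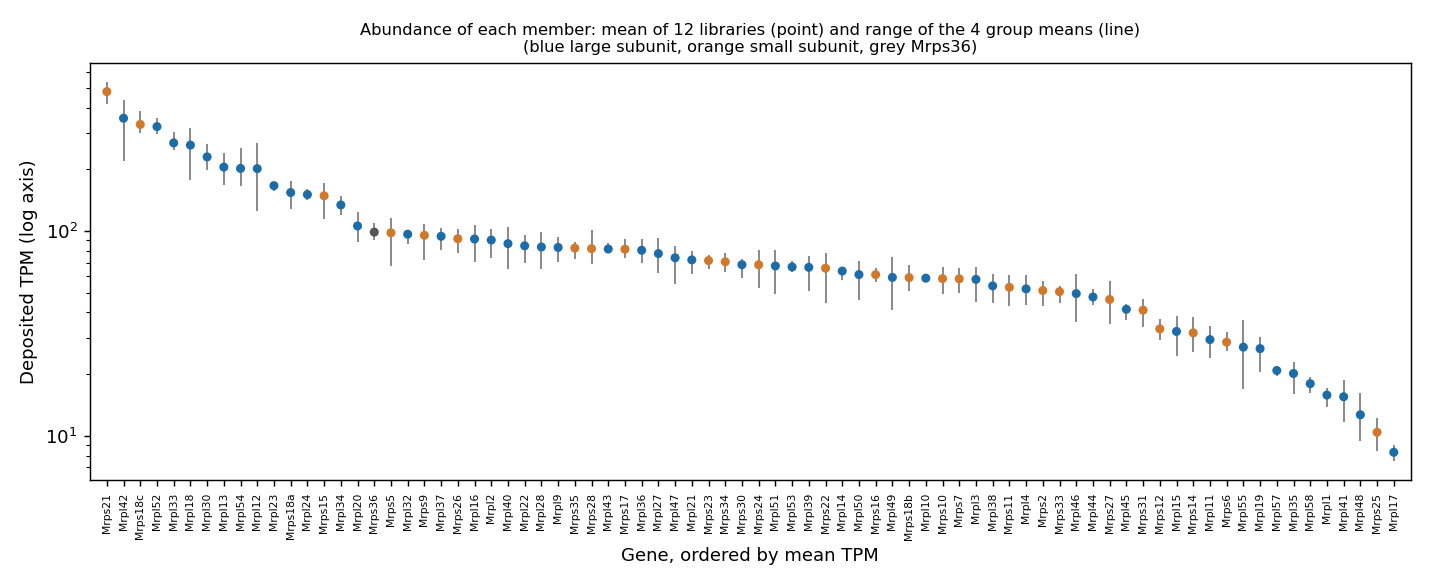
Mean level of each of the 78 genes in the 4 groups in TPM (log axis), ordered by the mean over all libraries. Levels run from 8.29 TPM for Mrpl17 to 480 TPM for Mrps21, and most genes lie between 10 and 100 TPM.

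Most mitoribosomal transcripts were lower in low glucose in DKO cells. Of the 78 genes 63 fell and 1 rose at a Benjamini-Hochberg adjusted p under 0.05 in edgeR's quasi-likelihood test, while 31.1% of the 11988 genes tested fell and 31.6% rose. The median log2 fold change was -0.34, a 1.26-fold fall, against 0.01 over all genes tested. The values are shares of each library, so fewer mitoribosomal transcripts per cell, fewer cells that hold them and a change in total messenger RNA cannot be told apart. In 69 genes every low-glucose library lay below every regular-medium library and in 1 above, against 36.5% and 37.6% of all genes tested. Falls were mostly modest: 9 of the 63 reached 1.5-fold, and no call reached 2-fold.

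**Figure D2:**
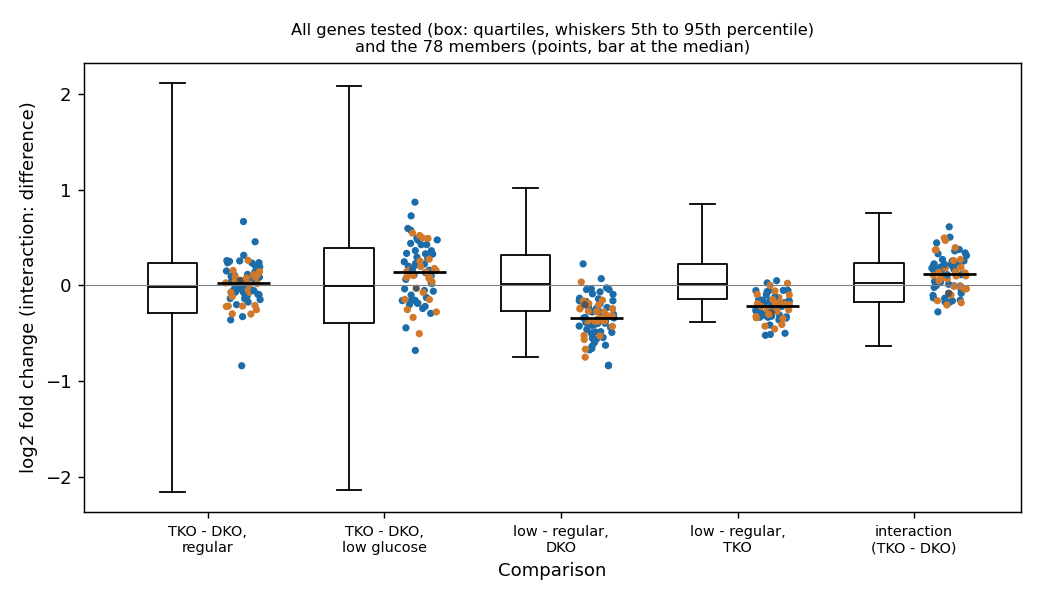
Log2 fold changes of the 78 genes beside those of all 11988 genes tested in the 4 comparisons, and the difference of the low-glucose responses (TKO minus DKO) for the interaction. The median of the 78 genes lies at -0.34 for low glucose in DKO and -0.21 for low glucose in TKO, while the median of all genes is 0.01 in both.

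Mrpl12, the stalk protein of the large subunit that contacts translation factors (chr11:120484613-120489065, mm10, plus strand), fell most. Its DKO libraries read 94.4, 85.3 and 88.5 CPM in regular medium and 49.1, 50.4 and 50.3 CPM in low glucose. All 3 low-glucose values lay near 50 and below every regular-medium value, a 1.79-fold fall (log2 -0.84 ± 0.055, adjusted p = 1.27e-08). Mrpl42 (chr10:95480805-95501940, minus strand), a mitochondria-specific protein of the large subunit, read 92.7, 91.1 and 90.6 CPM in regular medium and 51.4, 49.6 and 52.8 CPM in low glucose in DKO. The groups again stood well apart, with a 1.78-fold fall (log2 -0.83 ± 0.093, adjusted p = 2.7e-06).

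Promoters of the genes were searched because so many of them moved together, and those of Mrpl12 and Mrpl42, which fell most in DKO, are printed. The windows, from 250 bases before to 50 after the start in RefSeq on GRCm38.p6, are given 5′ to 3′ on the strand of the gene, at chr11:120484387-120484686 (plus strand) and chr10:95501900-95502199 (minus strand). Capitals mark matches to the motifs searched.
Mrpl12: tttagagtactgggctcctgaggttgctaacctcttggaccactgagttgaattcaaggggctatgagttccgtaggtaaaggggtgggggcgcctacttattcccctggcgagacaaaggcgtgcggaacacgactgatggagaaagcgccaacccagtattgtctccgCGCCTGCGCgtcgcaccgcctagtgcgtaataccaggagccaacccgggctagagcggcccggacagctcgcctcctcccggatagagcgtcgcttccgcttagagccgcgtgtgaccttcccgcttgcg
Mrpl42: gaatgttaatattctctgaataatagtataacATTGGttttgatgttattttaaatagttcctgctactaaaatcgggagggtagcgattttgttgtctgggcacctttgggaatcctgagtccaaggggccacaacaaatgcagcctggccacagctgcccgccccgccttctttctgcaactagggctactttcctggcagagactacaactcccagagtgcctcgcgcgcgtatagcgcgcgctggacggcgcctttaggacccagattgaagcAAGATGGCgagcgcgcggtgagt
In Mrpl12 the match is to the NRF1 motif, 80 bases before the start on the other strand, and in Mrpl42 to the YY1 motif, 28 bases after the start, and to a CCAAT box on the other strand, 218 bases before it.

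Windows were found for 69 of the 78 genes, 75 in all, and matches were counted on both strands. The letters searched were GCGCANGCG for NRF1, CCGGAAG for ETS factors, AAGATGGC for YY1, CACGTG for an E-box, CCAAT for the CCAAT box and TATAAA for the TATA box. NRF1, ETS factors and YY1 are known regulators of nuclear genes for mitochondria. NRF1 letters were in 16 of 75 windows (21.3%), against 13.6% of the windows of all tested genes and 6.25% of all windows. ETS letters were in 26 (34.7%, against 18.2% and 8.86%) and YY1 letters in 12 (16%, against 4.64% and 2.75%). The E-box (9.33%), CCAAT box (40%) and TATA box (6.67%) stood near the 10.1%, 38.3% and 6.95% of the tested genes. At least 1 of the NRF1, ETS and YY1 motifs was found for 44 of the 69 genes. Among 54 genes that fell in DKO 12 held NRF1, 17 ETS and 11 YY1 letters, and among the other 15 genes 4, 9 and 1. A match is a description of the letters, and its relation to the changes was not tested.

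Mrpl18 (chr17:12911349-12916345, minus strand), a bacterial-type protein of the central protuberance, read 111, 108 and 109 CPM in DKO in regular medium and 66.8, 68.3 and 70.5 CPM in low glucose. It fell 1.60-fold (log2 -0.67 ± 0.043, adjusted p = 8.82e-09). Mrpl50 (chr4:49512596-49521093, minus strand), a mitochondria-specific large-subunit protein, went from 77.97, 75.8 and 75.2 CPM to 49.3, 47.2 and 48.5 CPM. That was a 1.58-fold fall with no overlap between the media (log2 -0.66 ± 0.048, adjusted p = 3.86e-08).

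In the small subunit the largest falls in DKO were those of Mrps22 and Mrps5. Mrps22 (chr9:98588730-98601660, minus strand), found only in mitochondrial ribosomes, read 39.98, 38.97 and 41.5 CPM in regular medium and 24.4, 23.1 and 24.02 CPM in low glucose. The fall was 1.68-fold (log2 -0.75 ± 0.056, adjusted p = 4.86e-08). Mrps5 (chr2:127587222-127606829, plus strand), the counterpart of a bacterial protein at the entry of the messenger RNA channel, went from 73.5, 68.7 and 70.2 CPM to 45.5, 44.5 and 43.7 CPM. Its libraries did not overlap either, with a 1.59-fold fall (log2 -0.67 ± 0.10, adjusted p = 5.11e-05).

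Mrpl52, a mitochondria-specific large-subunit protein (chr14:54426909-54429756, plus strand), was the one gene that rose. It read 24.2, 21.1 and 22.3 CPM in DKO in regular medium and 25.8, 27.5 and 25.7 CPM in low glucose. The gap between the highest regular and the lowest low-glucose library was small, and the rise was 1.17-fold (log2 0.22 ± 0.081, adjusted p = 0.0263). The call was lost without library 2 or 3 of DKO in regular medium or without library 2 of DKO in low glucose (adjusted p 0.0722 to 0.114).

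The 14 genes that passed in neither direction in DKO were Mrpl9, Mrpl10, Mrpl14, Mrpl23, Mrpl24, Mrpl33, Mrpl34, Mrpl43, Mrpl48, Mrpl53, Mrpl57, Mrps12, Mrps14 and Mrps16, named after their values were seen. Mrpl9, which sits beside the L1 stalk of the large subunit, read 71.2, 71.7 and 73.4 CPM in regular medium and 66.98, 72.2 and 70.8 CPM in low glucose, with overlap between the media (log2 -0.04 ± 0.068). Mrpl10, which anchors Mrpl12 to the ribosome, read 49.3, 49.7 and 49.9 CPM and 45.9, 47.01 and 47.1 CPM. Its groups did not overlap, but the difference was small and did not pass (log2 -0.09 ± 0.040, adjusted p = 0.0709). The stalk protein thus fell 1.79-fold beside a value of 1.06-fold lower for its anchor. Mrps14, a bacterial-type protein of the head of the small subunit, had a log2 value of -0.31 that did not pass (adjusted p = 0.132). Its 3 DKO libraries per medium did not overlap (42.5, 43.3 and 44.4 CPM against 32.7, 37.3 and 35.4 CPM), while its TKO libraries ranged from 25.5 to 40.4 CPM in regular medium and from 19.0 to 35.6 CPM in low glucose.

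In TKO cells 51 of the 78 genes fell in low glucose, while 17.9% of all genes tested fell and 22.0% rose (39.9% in either direction). No member rose in edgeR at an adjusted p under 0.05, at an unadjusted p under 0.05, in DESeq2 or in limma voom. The median log2 fold change was -0.21, a 1.16-fold fall, against 0.01 over all genes. Every low-glucose library lay below every regular-medium library in 44 genes and above in 1 (Mrpl24), against 18.3% and 24.2% of all genes tested. None of the 51 falls reached 1.5-fold. Libraries of TKO with the same number deviated together across the media. Library 1 in regular medium, however, correlated more with library 3 in low glucose (0.395) than with library 1 (0.217). The labels state no pairing, and a block by number was chosen after the data were seen. With this block within TKO 65 genes fell, the 51 among them, beside 26.0% of all genes. The number that fell was 62 without library 2 of both TKO groups, each the furthest from the mean of its own group. There 21.3% of all genes fell. With limma voom the number was 63, beside 25.5% of all genes. It was 34 when only the TKO groups were fitted (13.8% of all genes). With TPM it was 37 (14.1% with a pseudocount of 1 and 13.9% with 0.1). Without library 1 or 2 of DKO in low glucose it was 36 or 37 (13.8% and 13.7%).

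The largest falls in TKO were those of Mrpl20, Mrpl28, Mrpl12 and Mrps28. Mrpl20 (chr4:155802878-155809975, plus strand), whose bacterial counterpart is needed early in large-subunit assembly, read 62.3, 52.5 and 62.4 CPM in TKO in regular medium and 42.2, 36.3 and 44.4 CPM in low glucose. The media did not overlap, and the fall was 1.44-fold (log2 -0.52 ± 0.076, adjusted p = 0.00012). In DKO the same gene fell 1.31-fold, from 59.2, 58.9 and 58.4 to 43.3, 47.6 and 44.2 CPM. Mrpl28 (chr17:26123500-26126613, plus strand), a bacterial-type large-subunit protein, went from 46.9, 38.5 and 45.1 CPM to 29.3, 27.02 and 34.7 CPM in TKO. Library 3 was the highest of the low-glucose libraries and still lay below all regular ones, with a 1.43-fold fall (log2 -0.51 ± 0.084, adjusted p = 0.000321). Mrpl28 fell 1.55-fold in DKO.

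Mrpl12 fell in TKO as well, from 104, 107 and 105 CPM to 70.5, 81.98 and 71.5 CPM. Library 2 in low glucose was the highest of its group, and the fall was 1.41-fold (log2 -0.50 ± 0.055, adjusted p = 1.2e-05). Mrps28 (chr3:8802146-8923918, minus strand), the counterpart of bacterial S1, read 26.6, 23.5 and 24.95 CPM in regular medium and 18.1, 20.7 and 16.6 CPM in low glucose in TKO, a 1.37-fold fall (log2 -0.46 ± 0.070, adjusted p = 0.000194). In DKO its fall was 1.21-fold, from 21.3, 20.6 and 20.9 to 17.05, 17.1 and 17.7 CPM.

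Calls in the media comparison were shared by both lines for 47 genes, which fell in each. A further 16 fell by the test in DKO and did not pass in TKO, Mrpl52 rose in DKO and did not pass in TKO, 4 passed in TKO and not in DKO (Mrpl14, Mrpl23, Mrpl43 and Mrpl57), and 10 passed in neither line. With the TKO libraries paired by number 56 fell in both lines, 7 in DKO only and 9 in TKO only, by their calls. Over all genes tested 31.1% fell in DKO and 17.9% in TKO (26.0% with the pairing). The share of all genes that fell in both lines was not counted. A pass in 1 line and not in the other does not show a difference between the lines, which the interaction tests. None of the 4 genes named last had a called interaction (adjusted p 0.213 to 0.334). By subunit, 33 of 51 large-subunit genes and 13 of 26 small-subunit genes fell in both lines. Over the 78 genes the log2 responses of DKO and TKO, which share no library, had a Pearson r of 0.42, and over all genes tested r was 0.55. The genes are not independent replicates, and these values are descriptions.

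**Figure D3:**
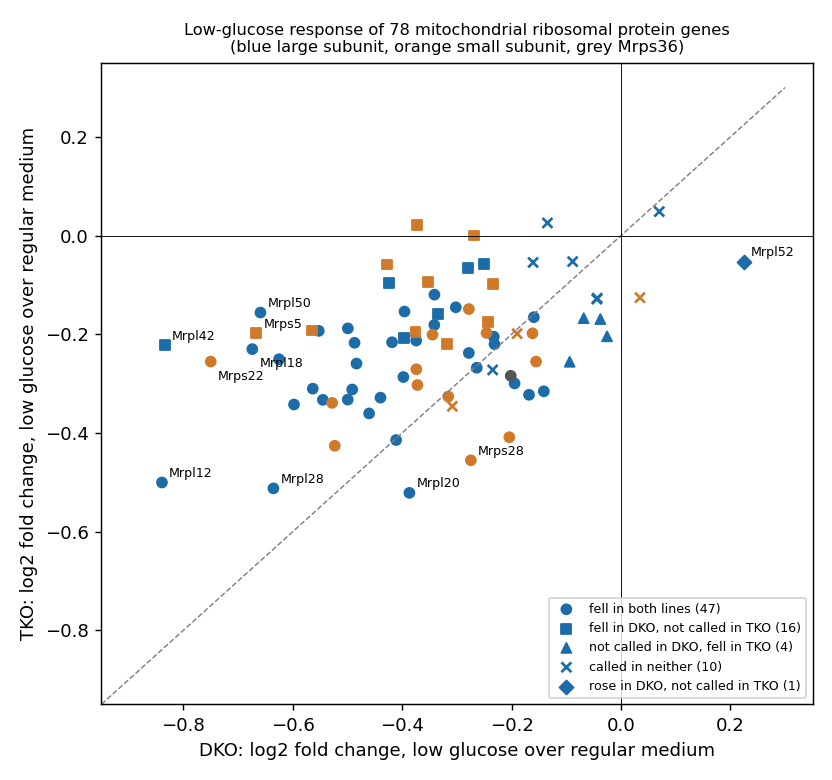
Log2 fold change in low glucose against regular medium for each of the 78 genes, DKO on the horizontal axis and TKO on the vertical axis. Most points lie below 0 on both axes, and the genes with a called interaction lie above the line of equal response.

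The low-glucose response differed between the lines in 18 of the 78 genes in the TMM fit, each with the smaller fall in TKO, that is with an interaction (TKO response minus DKO response) above 0. Over all genes tested 17.6% had a called interaction above 0 and 12.1% one below 0. With upper-quartile scaling 10 members passed above 0 and 3 below (median 0.040), beside 12.3% and 17.6% of all genes. With no filter on low counts the members' counts were the same (median 0.044), beside 8.6% and 11.8% of the genes then tested. No member passed below 0 in the TMM fit of edgeR. At an unadjusted p under 0.05 the number was 3, beside 1991 of all genes tested. It was 2 in DESeq2 (13.9% of all genes) and 11 in limma voom (19.9%). With the TKO libraries paired by number 31 members passed above 0, the 18 among them, and 5 below (Mrpl20, Mrpl37, Mrpl52, Mrpl54 and Mrps24), beside 26.3% and 18.7% of all genes. Without library 2 of both TKO groups 25 passed above 0 and 6 below, beside 23.3% and 15.6% of all genes. Leaving out library 2 of TKO in low glucose alone gave 5 below 0, beside 12.3% of all genes. Leaving out library 2 of TKO in regular medium gave 2 (13.5%), and library 3 of TKO in low glucose 1 (12.9%). The median interaction was 0.12, against 0.03 over all genes, and 53 of the 78 fitted values were above 0.

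Mrpl42 had the largest interaction, 0.61 ± 0.13 (adjusted p = 0.00323). In TKO it read 92.6, 112 and 92.8 CPM in regular medium and 80.1, 101 and 74.8 CPM in low glucose. These media overlap, since library 2 was the highest in each, and the TKO response did not pass (log2 -0.22 ± 0.093, adjusted p = 0.0737). Each low-glucose library lay below the regular-medium library of the same number. With the TKO libraries paired by number, a block chosen after seeing the data, the Mrpl42 fall passed (log2 -0.22 ± 0.035, adjusted p = 1.06e-05). Mrpl50 followed with an interaction of 0.50 ± 0.069 (adjusted p = 0.000114). Its TKO libraries read 65.05, 72.9 and 65.1 CPM in regular medium and 58.9, 63.3 and 60.2 CPM in low glucose, a fall of 1.11-fold.

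Mrps22 fell in TKO from 38.4, 44.3 and 40.03 to 32.6, 35.7 and 34.6 CPM, 1.19-fold lower beside 1.68-fold in DKO. Its interaction was 0.49 ± 0.080 (adjusted p = 0.000436). Mrps5 read 65.6, 89.04 and 69.7 CPM in TKO in regular medium and 63.4, 75.1 and 57.8 CPM in low glucose. Library 2 was again the highest in both media, the media overlapped, and the TKO response did not pass (log2 -0.20 ± 0.10, adjusted p = 0.142), with an interaction of 0.47 ± 0.14 (adjusted p = 0.0246). Every low-glucose library again lay below the regular-medium library of the same number. With the block by number, which no label states, the Mrps5 fall in TKO passed (log2 -0.19 ± 0.041, adjusted p = 0.000494). The Mrps5 interaction did not pass with upper-quartile scaling (adjusted p = 0.051), or without library 1 of DKO in regular medium, library 3 of DKO in low glucose, or library 1 or 3 of TKO in regular medium (adjusted p 0.0566 to 0.0653). Mrpl18 and Mrpl12 had interactions of 0.44 ± 0.060 and 0.34 ± 0.078 (adjusted p = 0.000106 and 0.00496).

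**Figure D4:**
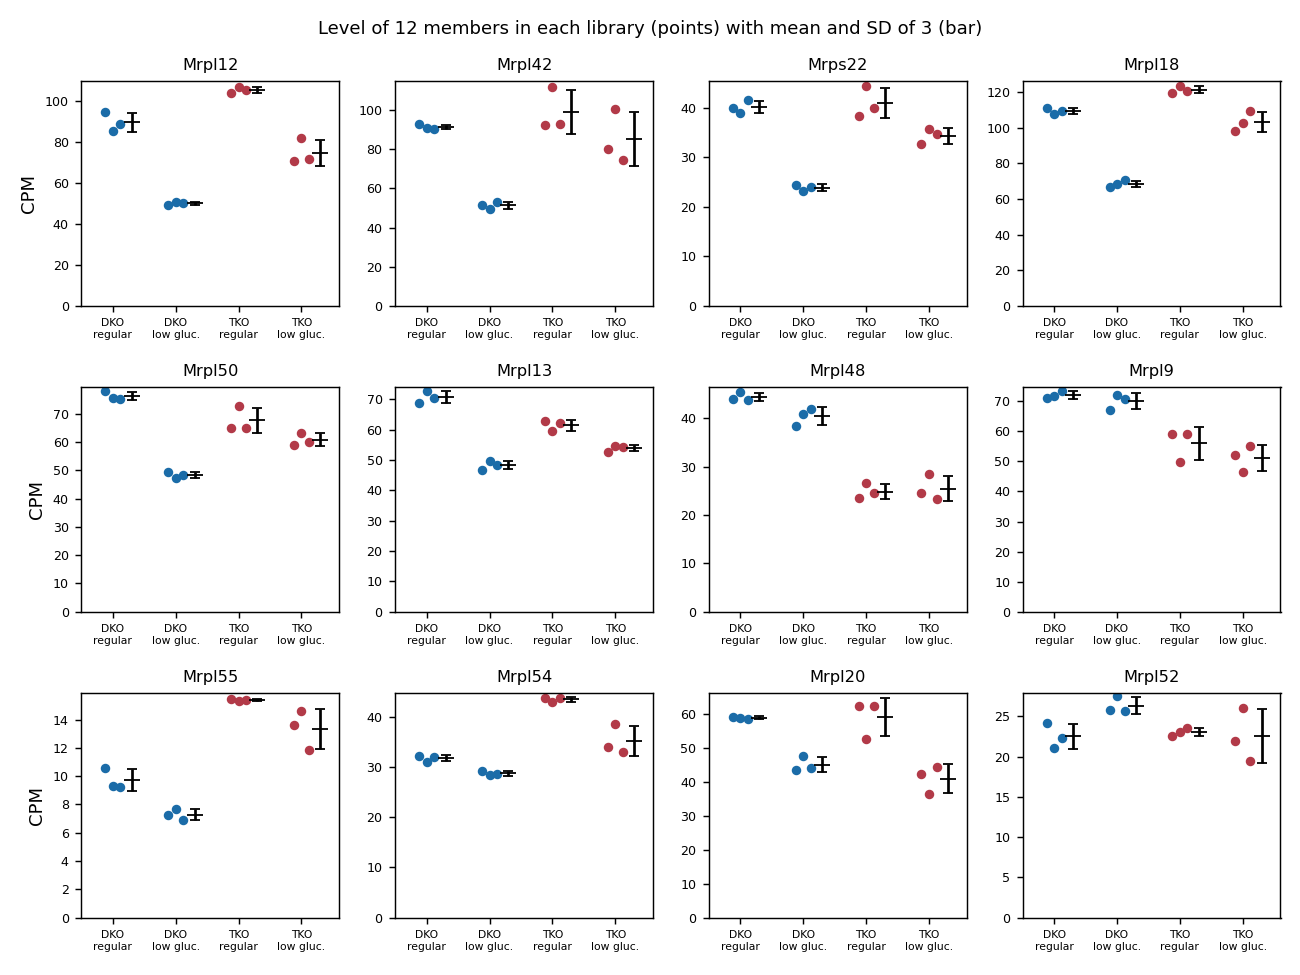
CPM per library of the genes with the largest changes, with a bar at each group mean (DKO blue, TKO red, 3 libraries per group). In Mrpl12, Mrpl42, Mrps22, Mrpl18 and Mrpl50 the DKO libraries in low glucose lie below the libraries of the other 3 groups.

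Between the lines in regular medium most mitoribosomal transcripts did not pass. In TKO 17 of the 78 were higher and 10 lower than in DKO, while 28.3% of all genes tested were higher and 33.4% lower. The median log2 difference was 0.02, against -0.01 over all genes. The number lower was 6 with no filter (20.7% of all genes) or with TPM (27.8% and 28.2%), and 17 with limma voom (38.4%). The median was 0.067 to 0.081 with the other scalings, no filter, DESeq2 or TPM. All libraries of TKO lay above all of DKO in 22 genes and below in 16, against 32.3% and 37.0% of all genes tested.

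Mrpl55, a bacterial-type protein of the central protuberance (chr11:59202486-59206134, plus strand), showed the largest difference upward. It read 10.6, 9.29 and 9.25 CPM in DKO and 15.5, 15.3 and 15.4 CPM in TKO in regular medium, with TKO values close together and far above DKO. The gene was 1.59-fold higher (log2 0.67 ± 0.079, adjusted p = 4.26e-06). Mrpl54 (chr10:81264713-81266934, minus strand), a mitochondria-specific large-subunit protein, read 32.2, 31.01 and 31.96 CPM in DKO and 43.8, 42.9 and 43.7 CPM in TKO, 1.37-fold higher (adjusted p = 3.15e-06). Mrpl40 (chr16:18872018-18876862, minus strand), of the central protuberance, read 36.6, 35.3 and 38 CPM in DKO and 43.9, 49.3 and 43.7 CPM in TKO. It was 1.24-fold higher (adjusted p = 0.000687), and Mrps28, with the values given above, was 1.20-fold higher (adjusted p = 0.00382).

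Mrpl48, a mitochondria-specific protein of the central protuberance (chr7:100545751-100608301, minus strand), showed the largest difference downward. It read 44.1, 45.3 and 43.9 CPM in DKO and 23.5, 26.5 and 24.6 CPM in TKO in regular medium. The lines stood far apart, at 1.79-fold lower in TKO (log2 -0.84 ± 0.067, adjusted p = 5.63e-08). Mrpl9 (chr3:94443318-94451130, plus strand) read 59.3, 49.7 and 59.3 CPM in TKO, below all DKO libraries given above and 1.28-fold lower (adjusted p = 0.00041). Mrps24 (chr11:5703983-5715680, minus strand), the counterpart of bacterial S3 in the head of the small subunit, read 35.8, 32.7 and 34.7 CPM in DKO and 28.5, 23.7 and 31.5 CPM in TKO, 1.23-fold lower (adjusted p = 0.00569). Mrpl33 (chr5:31596935-31664384, plus strand), a small bacterial-type protein of the large subunit, read 31.6, 34.1 and 31.5 CPM in DKO and 26.3, 21.3 and 29.6 CPM in TKO. The TKO values spread widely, and the call (1.254-fold lower, adjusted p = 0.0214) was lost without library 2 of DKO or library 2 of TKO in regular medium.

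In low glucose 50 of these transcripts passed between the lines, beside 27 in regular medium, while calls over all genes tested rose from 61.7% to 74.6%. In TKO 37 of the 78 were higher and 13 lower than in DKO, while 37.2% of all genes tested were higher and 37.4% lower. The median log2 difference was 0.14, against -0.00 over all genes. All libraries of TKO lay above all of DKO in 36 genes and below in 12, against 37.3% and 37.9% of all genes tested. The number lower was 8 without library 1 of DKO in low glucose (31.9% of all genes), 6 without its library 2 (31.6%) and 8 without its library 3 (35%).

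Mrpl55 was again furthest up, at 7.23, 7.67 and 6.90 CPM in DKO and 13.6, 14.6 and 11.8 CPM in TKO in low glucose, 1.83-fold higher (log2 0.87 ± 0.083, adjusted p = 2.77e-07). Mrpl42 was 1.65-fold higher (adjusted p = 7.62e-06), Mrpl18 1.51-fold (adjusted p = 1.36e-08) and Mrpl12 1.49-fold (adjusted p = 3.49e-07). For these genes the low-glucose libraries of the lines did not overlap. The Mrpl18 libraries of TKO read 119.7, 123 and 121 CPM in regular medium and 98.4, 102 and 109 CPM in low glucose, so that the TKO libraries in low glucose came near the DKO level of regular medium.

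Mrpl48 remained lower in TKO, at 38.5, 40.96 and 41.98 CPM in DKO and 24.6, 28.4 and 23.4 CPM in TKO in low glucose, 1.60-fold (adjusted p = 3.76e-07). Mrps24 read 28.5, 32.1 and 29.2 CPM in DKO and 21.7, 20.1 and 21.2 CPM in TKO, 1.42-fold lower (adjusted p = 8.2e-05), and fell in low glucose in both lines. Mrpl9 was 1.36-fold lower, at 51.99, 46.5 and 55.2 CPM in TKO (adjusted p = 4.53e-05). Mrpl37 (chr4:107055874-107066868, minus strand), a mitochondria-specific large-subunit protein, read 65.6, 64.1 and 67.2 CPM in DKO and 51.8, 54.2 and 54.9 CPM in TKO, 1.225-fold lower (adjusted p = 1.59e-05).

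Across both media 16 genes were higher and 6 lower in TKO. A further 19 were higher and 7 lower in low glucose alone, by their calls. Of all genes tested 28.3% were higher and 33.4% lower in regular medium, and 37.2% and 37.4% in low glucose. The shares of all genes with the same call in both media, with opposite calls or with a call in low glucose alone were not counted. The genes lower in both media were Mrpl9, Mrpl24, Mrpl37, Mrpl48, Mrps24 and Mrps34. Mrpl13 and Mrpl50 were lower in TKO in regular medium and higher in TKO in low glucose. Mrpl13 (chr15:55534094-55557748, minus strand), a bacterial-type protein of the large subunit, read 68.96, 72.8 and 70.6 CPM in DKO and 63.01, 59.5 and 62.2 CPM in TKO in regular medium. In low glucose it read 46.9, 49.6 and 48.4 CPM in DKO and 52.8, 54.7 and 54.2 CPM in TKO. The lines overlapped in neither medium, and the differences were small: log2 -0.20 ± 0.041 in regular medium and 0.16 ± 0.041 in low glucose (adjusted p = 0.000602 and 0.00309). For Mrpl50 the same differences were -0.17 ± 0.048 and 0.33 ± 0.049 (adjusted p = 0.0064 and 2.97e-05).

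Taking all 4 groups, DKO in low glucose had the lowest mean CPM for 54 of the 78 genes and TKO in low glucose for 22. TKO in regular medium had the highest mean for 41 genes and DKO in regular medium for 33. The median coefficient of variation within a group was 2.71% in DKO in regular medium, 3.19% in DKO in low glucose, 4.91% in TKO in regular medium and 7.88% in TKO in low glucose.

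**Figure D5:**
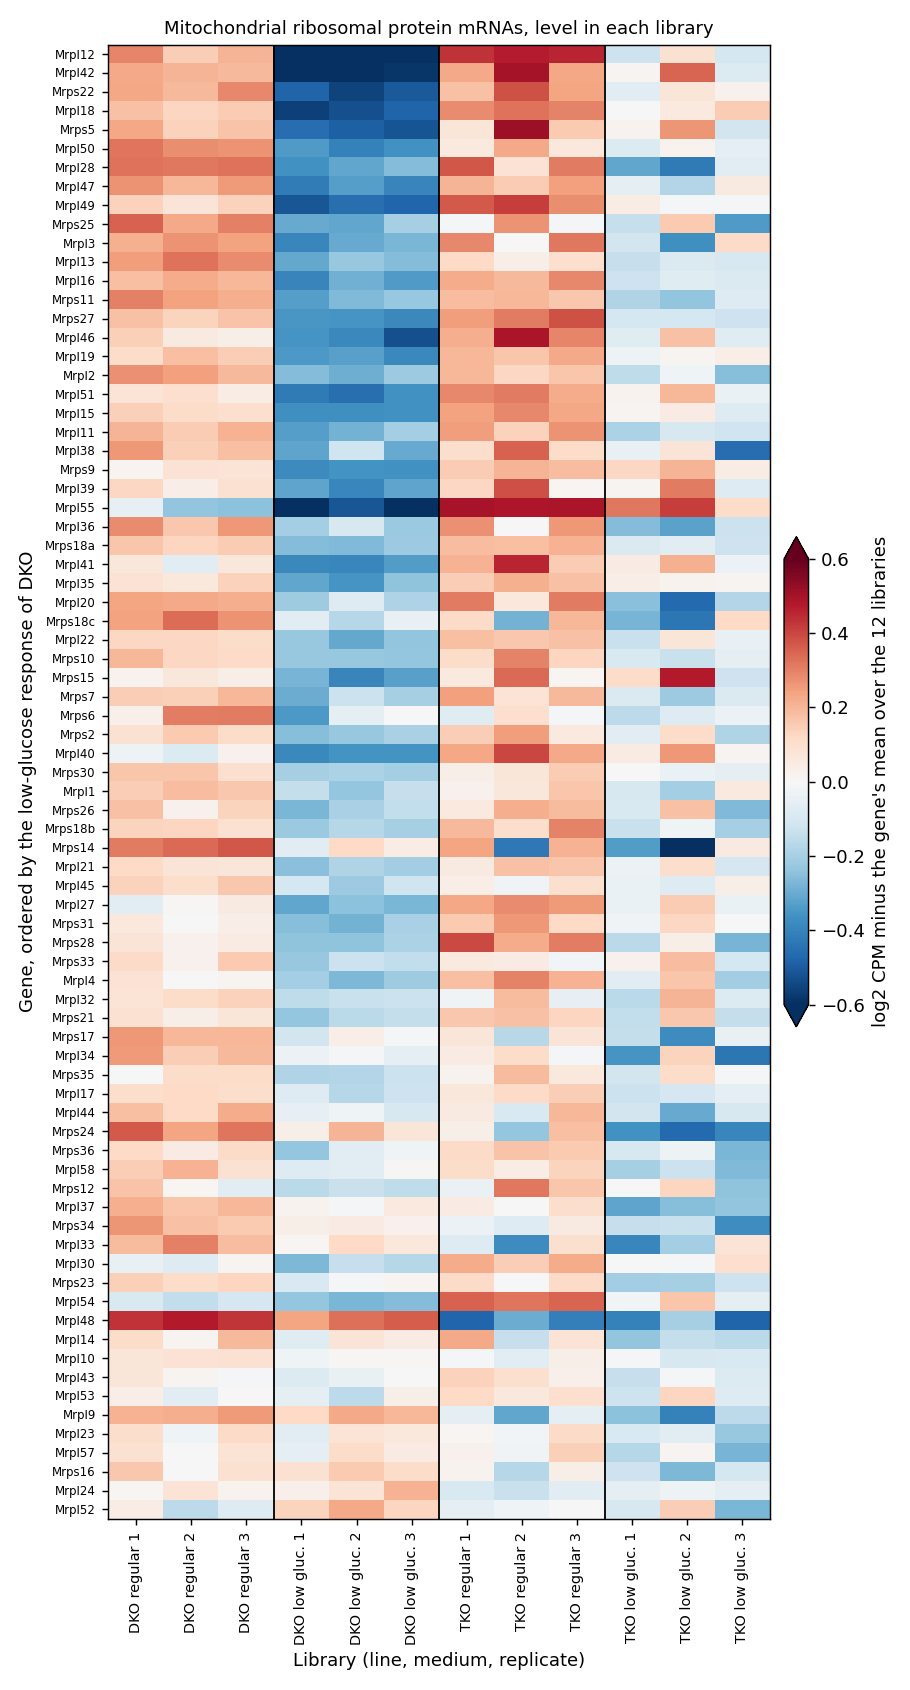
Log2 CPM of the 78 genes (rows, ordered by the low-glucose response of DKO) in the 12 libraries (columns, by group). Each value is the difference from the gene's mean over all libraries. The libraries of DKO in low glucose are the lowest for most genes, and library 2 of each TKO group differs in places from libraries 1 and 3.

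The falls in low glucose covered both subunits and both evolutionary classes. In DKO 39 of 51 large-subunit genes (median log2 -0.34) and 23 of 26 small-subunit genes (median -0.32) fell, and in TKO 37 of 51 (-0.22) and 13 of 26 (-0.20) fell. Of the 46 bacterial-type genes 36 fell in DKO and 30 in TKO, and of the 31 mitochondria-specific genes 26 and 20. Over all genes tested 31.1% fell in DKO and 17.9% in TKO. Called interactions above 0 numbered 14 of 51 (27.5%) in the large and 4 of 26 (15.4%) in the small subunit, beside 17.6% of all genes. In low glucose 27 of 51 large-subunit genes (52.9%) and 10 of 26 small-subunit genes (38.5%) were higher in TKO than in DKO. In the same comparison 9 large-subunit and 4 small-subunit genes were lower. Of all genes tested 37.2% were higher there and 37.4% lower. With the TKO libraries paired by number 43 of 51 large-subunit and 21 of 26 small-subunit genes fell in TKO, beside 26.0% of all genes. Interactions then passed above 0 in 23 of 51 and 8 of 26, and below 0 in 4 and 1, beside 26.3% and 18.7% of all genes. None of these differences between classes was tested. Summed TPM of the large subunit was 5126 ± 24.5 in DKO in regular medium and 4182 ± 28.9 in DKO in low glucose (SD, n = 3), and that of the small subunit 2498 ± 3.74 and 2041 ± 5.79.

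Groups by place in the ribosome, made after the values were seen, showed members with unlike values side by side. Of 7 genes of the central protuberance, the crown of the large subunit, 6 fell in each line. Between the lines in low glucose 4 of these were higher in TKO and 2 lower, with Mrpl55 (1.83-fold higher) and Mrpl48 (1.60-fold lower) at the ends. Of 5 genes at the stalk and factor-binding site 3 fell in each line. Beside Mrpl12, Mrpl11, at the factor-binding centre, went from 49.6, 47.7 and 49.8 to 34.2, 35.3 and 37.4 CPM in DKO (1.38-fold, adjusted p = 1.65e-06). Of 6 genes around the exit tunnel 4 fell in each line. Among them Mrpl45, which ties the ribosome to the inner membrane, fell 1.21-fold in DKO and had a called interaction of 0.21 ± 0.066 (adjusted p = 0.026). That interaction did not pass with upper-quartile scaling or no filter (adjusted p = 0.134 and 0.237), or without library 1 or 3 of DKO or library 1 of TKO in regular medium (adjusted p 0.0527 to 0.0693). Mrpl24, also at the tunnel, read 57.4, 60.3 and 57.7 CPM in DKO in regular medium and 58.1, 60.2 and 65.8 CPM in low glucose, with overlap and a log2 value of 0.07 ± 0.047. Of 8 genes of the head of the small subunit 7 fell in DKO and 4 in TKO. Over all genes tested 31.1% fell in DKO and 17.9% in TKO. Between the lines in low glucose 37.2% of all genes were higher in TKO and 37.4% lower.

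Mrps36 (chr13:100735955-100744659, minus strand), the 2-oxoglutarate dehydrogenase subunit, also fell in both lines. It read 26.3, 24.96 and 26.1 CPM in DKO in regular medium and 20.6, 23.1 and 23.7 CPM in low glucose (1.15-fold, adjusted p = 0.0139). In TKO it went from 26.2, 27.2 and 26.9 to 22.6, 23.6 and 19.97 CPM (1.218-fold, adjusted p = 0.00451). Differences between the lines did not pass in either medium.

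A further 5 mitoribosomal proteins carry other names, and 4 of them fell in each line in low glucose. Of all genes tested 31.1% fell in DKO and 17.9% in TKO. Ptcd3, a small-subunit protein with pentatricopeptide repeats, fell 1.60-fold in DKO, from 114, 116 and 116 to 71.2, 72.1 and 72.6 CPM (adjusted p = 2.96e-09). In TKO it fell 1.221-fold, and its interaction was 0.39 ± 0.055 (adjusted p = 0.000126). Dap3, Chchd1 and Gadd45gip1 fell in DKO by log2 -0.33, -0.46 and -0.41. With the TKO libraries paired by number all 5 fell in TKO, beside 26.0% of all genes. Aurkaip1 fell in TKO (log2 -0.26), had a log2 value of -0.09 in DKO that did not pass, and was lower in TKO than in DKO in low glucose (log2 -0.27).

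Genes that work with the mitoribosome were counted in the same way, and over all genes tested 31.1% fell and 31.6% rose in DKO, and 17.9% fell and 22.0% rose in TKO. Of 15 mitochondrial translation factors 9 fell and 1 rose in DKO, and 7 fell and 2 rose in TKO. Tufm, the elongation factor that delivers aminoacyl-tRNA, fell by log2 -0.62 in DKO and -0.50 in TKO, and Gfm1, the translocation factor, by -0.62 in DKO with an interaction of 0.39 ± 0.074. Mtfmt, which formylates the initiator tRNA, rose in DKO (log2 0.19), and Mtrf1 and Mtif2 rose in TKO (log2 0.28 and 0.15). Of 20 mitochondrial aminoacyl-tRNA synthetases and related enzymes 15 fell in DKO and 7 in TKO. With the TKO libraries paired 13 fell in TKO, beside 26.0% of all genes. Of 29 assembly and rRNA-modification genes 12 fell and 1 rose in DKO, and 11 fell in TKO. Fastkd2 and Mrm3, both acting on the large-subunit rRNA, fell by log2 -0.63 and -0.62 in DKO. Gtpbp6 rose in DKO (log2 0.32) and fell in TKO (log2 -0.31), and Gtpbp10, a GTPase of large-subunit assembly, was higher in TKO by log2 0.80 in regular medium and 1.01 in low glucose. Of 9 genes for transcription and copying of mitochondrial DNA 6 fell and 1 rose in DKO, and 5 fell in TKO. Transcripts and rRNAs encoded in mitochondrial DNA were not analysed here.

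Other large families set the scale. Over all genes tested 31.1% fell and 31.6% rose in DKO, and 17.9% fell and 22.0% rose in TKO. Of 77 tested nuclear genes for respiratory chain and ATP synthase subunits 57 fell and 5 rose in DKO (median log2 -0.33), and 51 fell and 2 rose in TKO (median -0.25). Of 78 tested cytosolic ribosomal proteins, many with near-identical copies, 45 rose and 2 fell in DKO (median 0.20). In TKO 11 of them rose and 4 fell (median 0.04). With the TKO libraries paired 25 rose and 10 fell, beside 28.2% and 26.0% of all genes. The mitochondrial and cytosolic sets thus had medians of opposite sign in DKO in low glucose, -0.34 and 0.20. Between the lines in low glucose 56 cytosolic ribosomal proteins were lower in TKO and 3 higher, while 37.4% of all genes were lower and 37.2% higher. Their median was -0.27, beside the median of 0.14 for the mitochondrial set.

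Counting bears on some of these values. The exons of 33 of the 78 genes overlap an exon of another annotated gene. In 9 a single other gene shared more than 20% of the bases. Bases shared with several genes were not added up, as in Mrpl47 (13.9% with Ndufb5 and 10.2% with Actl6a). Largest were Mrpl53 with Gm42688 (88.0%, same strand), Mrps25 with Nr2c2 (69.8%, opposite strand) and Mrps34 with Mapk8ip3 (63.4%, opposite strand). The libraries were strand-specific per the labels, but the strand setting of the counting is not given in the sources used here, so reads of such pairs cannot be told apart. Among genes named above, shared exon bases made up 33.4% in Mrpl43 (with Twnk), 26.3% in Mrpl24 (with Rrnad1), 14.1% in Mrpl10, 13.1% in Mrpl12, 10.1% in Mrpl18 (with Tcp1), 8.69% in Mrpl48 (with Rab6a), 5.81% in Mrpl9, 15.4% in Mrps24 and 23.2% in Mrps18c.

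The authors' deposited table of TKO against DKO in regular medium had 18 of the 78 genes higher and 9 lower at an adjusted p under 0.05 (median log2 0.05), and 2 genes, Mrpl38 and Mrpl57, had the other sign there, both without a call. In the authors' deposited table for low glucose 32 were higher and 8 lower (median log2 0.15), and all 78 had the sign found here.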

How the data were processed

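RNA-seq counts of 12 libraries of mouse B-ALL cells, 4 groups of 3, were analysed. The submitters' processing notes name STAR 2.7.3a, DESeq2 1.22.1 and the build mm10. Raw counts by the authors are deposited per gene symbol, and a deposited TPM table holds TPM, made by the authors in a way not given in the sources used here. The deposited comparison tables hold, per the file headers, the authors' mean normalised level and test statistic (each a score), a log2 fold change with its error, and p-values. The counter, its strand setting and its treatment of shared reads are not given.

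Counts were filtered (filterByExpr, minimum 10, total 15, leaving 11988 genes), scaled with TMM and fitted with edgeR 4.0.16 in R 4.3.3, 1 mean per group over all 12 libraries (8 residual degrees of freedom). Quasi-likelihood F-tests compared the lines in each medium, the media in each line, and the responses (interaction), with Benjamini-Hochberg adjustment over all genes and calls under 0.05. Log2 fold changes are given ± SE. Members and lists were chosen with earlier results of these data known, and groups by place in the ribosome after the values were seen. Named genes are, per comparison, the 4 largest called changes each way (6 falls for low glucose in DKO) with a mean of at least 5 CPM and no overlap between groups, the 3 highest and 3 lowest by TPM, genes with opposite calls, Mrps36, and up to 2 called genes each way of each other list. Alternatives used other scalings, no filter, DESeq2 1.42.0, limma 3.58.1 (voom, and log2 TPM with a pseudocount of 1 or 0.1), only the 2 groups compared, the replicate block, and each library left out. Same-numbered TKO libraries deviated together across the media (3 of 3 pairs with r over 0.1, 0.217 to 0.675), although library 1 in regular medium correlated more with library 3 in low glucose (0.395), and DKO libraries did not (0.0141 to 0.0519). The labels do not say what a number marks. A block within TKO and leaving out library 2 of both TKO groups were chosen after seeing the data. Coordinates are from GENCODE M21 on GRCm38 (mm10), to which all 78 symbols matched. The edgeR fit was tested on simulated data. Libraries of a group differed by more than counting noise over all genes together (chi-square per gene 2.12 to 54.7, on raw totals). The ribosomal RNA row Rn45s was counted in, and it took 1.99% to 4.62% of a library's counts. The value therefore does not measure the spread of the 78 genes.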

Additional observations from a re-analysis of the deposited data

Results flagged for a closer look

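The low-glucose response differed between the lines in 18 of the 78 genes (23.1%). The test was that of the difference itself (edgeR interaction, adjusted p under 0.05). Over all genes tested 17.6% had a called interaction above 0 and 12.1% one below 0. The values of the 18 genes are log2 responses of TKO less those of DKO, and in each the DKO fall was the larger. They were largest in Mrpl42 (0.61), Mrpl50 (0.50), Mrps22 (0.49), Mrps5 (0.47) and Mrpl18 (0.44), whose libraries are given in the report. Mrpl47, at the exit tunnel, had 0.37, Mrps9, in the head of the small subunit, 0.37, Mrpl13 0.36, Mrpl12, the stalk protein, 0.34 and Mrpl19 0.31. Smaller values were those of Mrpl51 (0.27), Mrps33 (0.27), Mrpl49 (0.26), Mrpl35 (0.24), Mrpl15 (0.22), Mrps30 (0.22), Mrpl45 (0.21) and Mrpl16 (0.21). Not all of these calls held under the alternatives. Those of Mrpl15, Mrpl16, Mrpl35, Mrpl45, Mrpl51, Mrps30 and Mrps33 did not pass with upper-quartile scaling or with no filter on low counts (edgeR, adjusted p 0.0504 to 0.237), nor that of Mrpl49 with no filter (adjusted p = 0.0787) or of Mrps5 with upper-quartile scaling (adjusted p = 0.051). Mrps33 also did not pass with DESeq2's size factors, in DESeq2, with the replicate block over all libraries, without library 2 of both TKO groups, or without library 1 or 3 of DKO in either medium, library 1 or 3 of TKO in regular medium, or library 1 or 2 of TKO in low glucose (adjusted p 0.0511 to 0.11). Mrpl51 did not pass without library 3 of TKO in regular medium (adjusted p = 0.0533), and the libraries on which Mrps5 and Mrpl45 rest are named in the report.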

How the results depend on the processing

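Followed under the alternatives were 45 results, picked as the largest called changes without overlap between groups or as called interactions. Of their values 952 kept their direction and their side of the threshold. A further 42 kept their direction and were no longer past it, and none changed sign. Results picked as called in these same data mostly stay past the threshold, so the tally is no independent check. Other genes named in the report are not in it. Over all genes the balance of calls did turn with the scaling, as given below for the interaction. In regular medium the number of genes lower in TKO (10) was 6 with no filter and 17 with voom, beside 20.7% and 38.4% of all genes. It was 6 and 6 with TPM at a pseudocount of 1 and 0.1, beside 27.8% and 28.2%. The median difference (0.02) was 0.068 with DESeq2's size factors in edgeR, 0.069 with upper-quartile scaling and 0.077 with no filter. It was 0.067 with DESeq2 and 0.080 and 0.081 with TPM. In low glucose the number lower in TKO (13) was 6 and 6 with TPM (32.7% and 32.5% of all genes), with medians of 0.20 and 0.20. For low glucose in DKO the median (-0.34) was -0.31 with DESeq2's size factors, -0.25 with upper-quartile scaling, -0.29 with no filter, -0.31 with DESeq2 and -0.30 and -0.31 with TPM, and 2 genes rose with upper-quartile scaling, where 4765 of all genes rose and 2904 fell (3789 and 3723 in the TMM fit). The median of the 78 genes lay 0.35 below that of all genes with each of these scalings of counts. A change of scaling shifts all genes of a comparison nearly alike, so this distance is no check of the result. For the interaction the number below 0 (0) was 1 with DESeq2's size factors (13.6% of all genes) and 3 with upper-quartile scaling (17.6%). It was 3 with no filter (11.8%), 2 with DESeq2 (13.9%) and 11 with voom (19.9%). With TPM it was 1 and 1 (12.7% and 11.2%), and without library 2 of both TKO groups 6 (15.6%). With the TKO libraries paired by number (replicate block within TKO) the numbers were 5 below and 31 above, beside 18.7% and 26.3% of all genes. The number above 0 (18) was 32 with voom (27.1% of all genes), 10 with upper-quartile scaling and 10 with no filter. The median (0.12) was 0.040 and 0.044 with upper-quartile scaling and no filter. There 1469 and 1449 of all genes had an interaction above 0 and 2115 and 1991 below (2106 and 1447 in the TMM fit). The cause was not tested. Leaving out each library in turn gave 12 to 18 genes higher and 8 to 14 lower in TKO in regular medium (median 0.00 to 0.04), 35 to 41 and 6 to 15 in low glucose (0.11 to 0.19), 0 to 1 risen and 58 to 66 fallen in DKO (-0.35 to -0.32), 36 to 57 fallen in TKO (-0.26 to -0.18), and 15 to 24 interactions above and 0 to 5 below 0 (0.09 to 0.16). With each library left out 13.7% to 19% of all genes fell in TKO. Interactions then passed above 0 in 14.2% to 20% of all genes and below 0 in 7.65% to 13.5%. Over all groups 4 of 18 same-numbered pairs had correlated deviations over 0.1. With the numbers as a replicate block over all libraries the counts higher and lower were 17 and 12, 38 and 14, 1 and 65, 0 and 52, and 18 and 0, in the order just given (TKO against DKO in regular medium and in low glucose, low glucose in DKO and in TKO, interaction). With that block 28.9% and 34%, 37.6% and 37.8%, 32% and 31.6%, 22.4% and 18.9%, and 18.8% and 12.6% of all genes were called so. Each of the 78 genes had at least 170 counts in every library, and how far depth limited the calls was not tested.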

Other observations

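Several mitoribosomal genes share exon bases with a protein-coding gene on the other strand, and these neighbours are values outside the comparisons above. There were 22 such pairs, and 18 of the neighbours were tested and were not themselves mitoribosomal. In DKO 8 of the 18 neighbours fell and 7 rose in low glucose, while 31.1% of all genes fell and 31.6% rose. In TKO 5 of the 18 fell and 4 rose, while 17.9% of all genes fell and 22.0% rose. Actl6a, which shares exon bases with Mrpl47, fell by log2 -0.73 in DKO beside -0.63 for Mrpl47. Tcp1, a subunit of the cytosolic chaperonin, fell by -0.52 beside -0.67 for Mrpl18, and Gcfc2 by -0.49 beside -0.50 for Mrpl19. Other pairs went apart: Wdfy1 rose by log2 0.57 in DKO beside a fall of -0.23 for Mrpl44, Mapk8ip3 rose by 0.46 beside -0.16 for Mrps34, and Syvn1 rose by 0.27 beside -0.60 for Mrpl49. Mrpl46 and Mrps11, mitoribosomal on both strands with 173 shared exon bases, fell by log2 -0.50 and -0.53 in DKO and by -0.33 and -0.34 in TKO. These pairs were chosen after their values were seen.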
